A study of Vitis vinifera with 12 samples.

Results

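On a custom array for grapevine miRNAs, 329 of 1579 distinct perfect match probes were complementary to a stretch of a precursor that ran past an end of a mature miRNA. They were found by sequence alone. The reverse complement of each shares an exact, ungapped run of at least 9 bases with a mature sequence listed by the study, and starts 8 to 12 bases before its 5′ end or 4 to 12 bases after it. There were 109 probes that started about 10 bases upstream (8 to 12 before), 104 that started about 5 bases downstream (4 to 7 after) and 116 about 10 bases downstream (8 to 12 after). The study placed such probes on the array to test specificity, since a probe moved along the precursor can pair with only a part of the mature miRNA.

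Plant miRNAs are cut by a Dicer-like nuclease from a hairpin inside a longer transcript. The mature strand is loaded into an Argonaute protein and guides it to target mRNAs, whereas the flanking stretches of the hairpin are normally degraded. A labelled small RNA preparation therefore holds the mature strand as a short molecule of defined ends, and a probe that extends beyond those ends has part of its length unpaired.

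Low molecular weight RNA of *Vitis vinifera* cv Corvina, labelled with Cy5, was hybridized to 12 arrays, 2 for each of 6 tissues, each array with an extraction of its own. The tissues were pooled leaves, young inflorescences taken 3 weeks before flowering, roots, and berries without seeds that were green (5 weeks after flowering), at veraison (9 weeks) or mature (15 weeks). Roots came from in vitro culture and all other tissues from the field, so organ and growth condition cannot be told apart for roots, and array slides were stripped and used again. The array holds no mRNA probes with which the tissue labels could be checked. P-values of comparisons between tissues measure the spread between extractions only. Those of comparisons between shifts measure the spread between tissues.

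Values are median fluorescence intensities over the replicate spots of a probe, in scanner units before normalization. Background was set for each array at 2 SD over the mean of the 14 control probes (negative and degradation controls). A probe counted as present in a tissue if it exceeded background on both arrays and its perfect match was over 1.2 times as bright as its mismatch partner. Background levels ran between 666 and 4353 (median 1421), and the median intensity of the 329 shifted probes lay between 1 and 230.5 per array, with a median of 42.8. Only 1.49% of the values of shifted probes were above background. No shifted probe reached the scanner's limit on any array.

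A probe equal to the mature sequence was on the array for 265 of the 329 shifted probes, or 54 of the 73 mature sequences. The other 64 have intensities but no ratio, and include all probes next to miR397a, miR398a, miR398b and miR408. In 17 of the mature sequences, of 11 families, the mature probe was present in at least 1 tissue, which gave 273 combinations of 1 shifted probe with 1 tissue (pairs) over 106 probes. All ratios below refer to those pairs unless stated otherwise.

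The sequences show what each shift removes. Each line gives the RNA stretch that a probe is complementary to, 5′ to 3′ and in DNA letters. A mature miRNA stands in capitals, and under it the stretches of its shifted probes with only the bases they share with it in capitals. miR159c is shown because it was the brightest mature miRNA, with shifted probes that gave almost no signal.
miR159c: TTTGGATTGAAGGGAGCTCT
probe 386, start 10 before: tagatccttgTTTGGATTGA
probe 105, start 6 after: TTGAAGGGAGCTCTacacct
probe 388, start 10 after: AGGGAGCTCTacacctctct
miR166a is shown because most of the ratios above 10% belonged to it. Its upstream probes share the same 10 bases and differ in their flanks.
miR166a: TCGGACCAGGCTTCATTCCT
probe 434, start 10 before: ctgaatgatcTCGGACCAGG
probe 440, start 10 before: agtgaaggtgTCGGACCAGG
probe 422, start 10 before: gttagtgcccTCGGACCAGG
probe 439, start 10 after: CTTCATTCCTgacaccaagc
The next sets carry the remaining high ratios, in miR169l, miR156f and miR156a.
miR169l: GAGCCAAGGATGACTTGCCGT
probe 511, start 10 before: gggtggaataGAGCCAAGGA
probe 502, start 10 before: gagtggaataGAGCCAAGGA
miR156f: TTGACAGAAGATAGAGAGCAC
probe 95, start 6 after: GAAGATAGAGAGCACagatg
miR156a: TGACAGAAGAGAGGGAGCAC
probe 83, start 5 after: GAAGAGAGGGAGCACaaccc
probe 361, start 10 after: GAGGGAGCACaacccagcat
The following stretches belong to shifted probes that were present themselves, in miR169a, miR171f and miR398, with a dim probe of the same overlap (462) beside probe 471.
miR169a: CAGCCAAGGATGACTTGCCGG
probe 471, start 10 after: TGACTTGCCGGagatggggc
probe 462, start 10 after: TGACTTGCCGGaatttatat
probe 161, start 6 after: AGGATGACTTGCCGGagatg
miR171f: TTGAGCCGCGCCAATATCACT
probe 212, start 8 before: atctctgaTTGAGCCGCGCC
probe 218, start 8 before: atgtttggTTGAGCCGCGCC
probe 63, miR398b, start 4 after: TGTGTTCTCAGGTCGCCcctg
probe 292, miR398a, start 9 before: cattttgtgTTCTCAGGTCA
probe 295, miR398b, start 10 after: CTCAGGTCGCCcctgctgga
probe 289, miR397a, start 4 after: AGTGCAGCGTTGATGAAact
probe 329, miR408, start 5 after: TGCCTCTTCCCTGGCtctgt

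Most shifted probes lost over 90% of the mature signal. The mean intensity of the shifted probe was more than 90% below that of the mature probe in 241 of 273 pairs (88.3%, exact Clopper-Pearson 95% interval 83.9 to 91.8, counting error only), and the median pair kept 2.46%. In 74 pairs less than 1% was left. Pairs share probes, mature probes and arrays, so that the interval does not describe independent observations. The share fell to 69.6% of 713 pairs with a background that leaves out the ubiquitin control, to 75.1% without the second inflorescence array and to 70.2% without the second mature berry array. Without those arrays the median pair kept 4.98% and 4.55%.

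The loss was seen at each shift. Of the probes starting 10 bases upstream, 70 of 87 pairs (80.5%, 70.6 to 88.2) lost over 90%, with a median of 4.35% of the mature signal left and a highest value of 41.9%. Of those 5 bases downstream, 78 of 86 (90.7%, 82.5 to 95.9) did so, with a median of 3.78% and a highest value of 26.6%. Of those 10 bases downstream, 93 of 100 (93.0%, 86.1 to 97.1) did so, with a median of 1.70% and a highest value of 14.96%. Of the 17 upstream pairs that kept at least 10%, 15 were of miR166a. The upstream median moved most with single arrays, to 8.42% without the second inflorescence array, 7.18% without the second mature berry array, 2.28% without the first root array and 2.46% without the first green berry array. The 10 downstream median was 3.31% without the second inflorescence array. Probes that start 3 to 7 bases upstream of the same kind of mature sequence, measured alike, lost over 90% in only 13 of 88 pairs (14.8%) and kept 30.5% in the median.

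Over the 6 tissues, the log2 ratio was lower at each of these shifts than 5 bases upstream. The difference, taken within each miRNA and then as the median over miRNAs of a tissue with intensities under 50 set to 50, averaged -3.42 ± 1.24 for 10 upstream, -3.23 ± 0.67 for 5 downstream and -4.14 ± 1.005 for 10 downstream (SD, n = 6 tissues). All 6 tissues were below 0 in each of the 3 comparisons, and a two-sided exact sign-flip permutation test gave p = 0.03125, the smallest that 6 tissues allow, with 0.0469 after the Benjamini-Hochberg adjustment over 6 comparisons. The 3 calls were lost without the first root array, with the control mean subtracted and with the array median subtracted (exact test, adjusted p = 0.0625 each), while all 3 differences stayed below 0. A start 5 bases downstream thus left less signal than a start 5 bases upstream, although both kinds of probe overlap the mature miRNA by about the same length.

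Among the shifts themselves, 5 downstream exceeded 10 downstream by 0.78 ± 0.76 on the log2 scale (SD, n = 6 tissues, higher in all 6, exact sign-flip p = 0.03125, adjusted 0.0469). It was 2.22 in leaves, where it rests on 2 miRNAs, then 0.91 in inflorescences, 0.61 in mature berries, 0.50 at veraison, 0.37 in roots and 0.10 in green berries. Without the first root array the adjusted p of this exact test was 0.0938, and after subtraction of the control mean the difference was 0.32 with an adjusted p of 0.6. The 10 upstream probes did not pass the test against 5 downstream (-0.69 ± 1.08, higher in 2 of 6, exact p = 0.25, adjusted 0.3), although they did with a background at mean plus 3 SD (-1.25) and with the nearest probe as stand-in for a missing mature probe (-0.69, exact test, adjusted p = 0.0375 each). They did not pass it against 10 downstream (0.24 ± 0.50, higher in 3 of 6, exact p = 0.375, adjusted 0.375).

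Median ratios were higher with longer shared runs at the downstream side but not between sides. The 10 upstream probes shared a median of 10 bases with the mature sequence, the 10 downstream probes 11 and the 5 downstream probes 15. Among the 10 downstream probes the median ratio was 1.32% with 10 shared bases (27 pairs), 1.69% with 11 (63 pairs) and 2.95% with 12 (8 pairs), and 2 pairs with 9 shared bases kept 0.038%. Among the 5 downstream probes it was 1.03% with 14 (15 pairs) and 4.15% with 15 (68 pairs), with 5.90% for 16 (2 pairs) and 9.44% for 17 (1 pair). Yet upstream probes with only 10 shared bases kept a median of 4.35% (81 pairs), as much as 15 bases at the downstream side. Of the upstream pairs, 28 came from miR166a, with a median of 10.7%. The upstream medians of other families with many pairs were 1.63% (miR156), 4.11% (miR167), 0.22% (miR159) and 0.66% (miR403). Families with at most 3 upstream pairs ran between 1.34% (miR390) and 39.2% (miR169). The G and C content of the shared run went with the ratios in part. Among the 5 downstream probes the median was 1.64% with 7 G or C, 2.87% with 8, 4.79% with 9 and 5.07% with 10. Among the upstream probes it was 0.51% with 3, 1.74% with 4, 1.26% with 5, 4.35% with 6 (highest value 41.9%) and 10.7% with 7 (highest value 22.3%), where all 7 probes belong to miR166a. No steady order was seen among the 10 downstream probes, with 1.81% for 4 G or C and 1.70% for 8. The steps in G and C rest on 1 to 7 mature miRNAs each and are given as a description.

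The 6 tissues differed in the share of pairs above 10%. Their pairs do not cover the same probes, since the mature miRNAs present differ between tissues. There were 2 of them in leaves, 5 in green berries, 8 each in inflorescences and mature berries, 10 in roots and 11 at veraison. All 41 pairs of green berries lost over 90%, as did 67 of 70 in roots, 38 of 41 in inflorescences, 5 of 6 in leaves, 53 of 63 at veraison and 37 of 52 in mature berries. The green berry count rests on its second array, without which 32 of 41 pairs dropped. The median pair kept 0.62% in roots, 1.41% in green berries, 3.31% at veraison and 6.999% in mature berries. The upstream probes showed this most, with 17 of 17 pairs dropped in green berries, 10 of 18 at veraison and 8 of 14 in mature berries. With the first green berry array alone it was 10 of 17 in green berries as well. Arrays differed in the floor of their signals alongside. The lowest shifted probe read 107 on the first mature berry array and 117 on the first inflorescence array, against 0 to 30.5 on the other 10 arrays. When the median of all miRNA probes of an array was subtracted from both signals, the upstream probes dropped in 10 of 18 pairs at veraison and in 11 of 14 in mature berries, and the median pair of mature berries kept 0.24%.

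By the background of 14 controls, no shifted probe both kept 10% of the mature signal on each array of a tissue and was present there. With the ratio alone, 18 pairs of 13 probes kept at least 10% on both arrays, and these belonged to miR156, miR166, miR169 and miR390. After subtraction of the control mean, 8 of the 18 pairs still kept 10% by mean signal (5 of 12 in miR166, 1 of 3 in miR156, both of miR169 and not that of miR390). After subtraction of the array median it was 14 of the 18, and 15 of the 18 in the deposited normalized table. In the ratio of mean signals 32 pairs of 21 probes of 6 families, with miR167 and miR319 added, kept at least 10%. Every such probe was at or below that background on at least 1 array, so that these ratios compare a dim signal with a mature probe. When the ubiquitin control was left out of the background, some probes both kept 10% on each array and were present. Among them were probe 83 in inflorescences, probes 419 and 434 at veraison and in mature berries, and probe 440 in mature berries.

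miR159c, of the family that targets GAMYB-like transcription factors, had the clearest loss. Probe 386, which starts 10 bases before it, read 7.5 and 1 in leaves and 1 on both root arrays. Probe 388, starting 10 bases after it, read 4 and 6 in leaves and 13.5 and 1 in roots. Probe 105 shares 14 bases at the 3′ side, with 75.5 and 100 in leaves and 189 and 96 in roots, and stayed between 0.50% and 2.47% of the mature signal on all 12 arrays. The mature probe read 12963 and 8644 in leaves and 9250 and 18477 in roots, and 45639 on the second green berry array. Over the family, all 26 pairs dropped and the highest ratio was 4.09%.

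The same held in 4 more families. All 20 pairs of miR160, which targets auxin response factors, kept at most 6.81%. All 28 of miR403, which targets an Argonaute mRNA, kept at most 8.998%. All 15 pairs of miR535 kept at most 9.10%, and all 5 of miR171, which targets GRAS factors of the scarecrow-like kind, kept at most 9.73%. The miR171 pairs leave out probes 212 and 218, since the mature probe of miR171f was present in no tissue. Both probes exceeded that mature probe on 11 of 12 arrays. In miR167, a further miRNA of auxin response factors, 50 of 51 pairs dropped, and in miR319, which targets TCP factors, 31 of 33 did.

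miR166a, which targets class III homeodomain leucine zipper factors, held 17 of the 32 pairs that kept at least 10%, by the assignment used here. Probe 434, which shares only its first 10 bases, read 1155 and 1489 in green berries, 849 and 832.5 at veraison (20.5% of the mature signal) and 440 and 830 in mature berries (22.3%). Probe 440, with another flank, read 1066 and 597.5 at veraison (20.3%) and 580 and 590 in mature berries (20.6%). The mature probe read 3196 and 26514 in green berries, 4692 and 3500 at veraison, and 3077 and 2608 in mature berries. Probe 434 was brightest in green berries, where its ratio was 8.90%, and probe 440 was brightest in leaves. In leaves probe 440 stood at 36.3% and probe 434 at 21.9% of the mature probe. These leaf ratios are not among the pairs, since the mature probe was not called present in leaves. In green berries probe 434 stood at 36.1% of the mature probe on the first array and at 5.62% on the second, where the mature probe was brightest.

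All 7 upstream probes of miR166a end in the same 10 bases, so they differ only in the part that the mature miRNA does not pair with. These 10 bases also begin miR166c, which has 6 precursors, against 2 of miR166a, and no equal probe on the array. The flanks were not traced to precursors, and the ratios are to the miR166a probe only. Of these, 6 were alike, with tissue means between 297 and 1523, and probe 422 was dimmer in every tissue (145 in leaves, 154 in roots, 202 in mature berries). Probe 434 exceeded 1.2 in perfect match over mismatch on all 12 arrays, as did probes 440, 419, 428, 431 and 437, but only 1 to 4 of their 12 arrays were above background. Probe 439, on the other side, shares the last 10 bases of miR166a and read 434 and 416.5 in mature berries, or 14.96% of the mature signal. It also exceeded 1.2 on all 12 arrays, and was above background on none.

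The 2 highest ratios came from miR169l, of the family that targets NF-YA subunits. Probe 511 kept 41.9% of the mature signal at veraison, with 334 and 920.5 against 934 and 2063 on the mature probe, and probe 502 kept 36.6% there, with 349 and 746.5. Their stretches share 18 bases with each other. The bases they share with miR169l also begin miR169o and miR169i, so their assignment rests on the order of the study's list. The mismatch probe was brighter than the perfect match probe for both on every array, with ratios of 0.06 to 0.94 for probe 511 and 0.03 to 0.78 for probe 502. Neither was above background on any array.

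In miR156, which targets SPL factors, probe 95 next to miR156f read 233.5 and 511 in mature berries, against 914.5 and 1883 on the mature probe, and kept 26.6%. Its mismatch ratio was above 1.2 on 1 of 12 arrays. Probe 83 next to miR156a read 1033 and 3521 in inflorescences, against 1681 and 20286 on the mature probe, and kept 20.7%. It had a mismatch ratio above 1.2 on 2 of 12 arrays. Probe 361, farther downstream on the same side, shares only 10 bases with miR156a and 15 with the stretch of probe 83. It read 2047 and 989.5 in inflorescences, 1722 and 2905 in green berries, 2661 and 1378 at veraison and 2236 and 1576 in mature berries, and exceeded 1.2 on all 12 arrays (3.10 to 27.9). On 4 arrays it was brighter than the mature probe, among them the first arrays of inflorescences and mature berries, and on the second inflorescence array it stood at 4.88% of it.

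miR390, which starts the cutting of trans-acting siRNA precursors, kept 12.2% in inflorescences through probe 241, with 451.5 and 514 against 2936 and 4983. That probe stood at 11.4% in leaves by mean signal, with 54 and 1190 on its 2 arrays, so the leaf value rests on the second array. Its mismatch ratio was above 1.2 on 1 of 12 arrays.

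A few shifted probes were present in their own right, counting probes 63 and 668, which may be designed probes of mature miR398. There were 6 of 329 (1.82%), a smaller share than the 5.64% of all 1579 probes present in at least 1 tissue. By tissue, they numbered 4 in roots, 3 each in inflorescences, green berries and veraison berries, 2 in mature berries and 1 in leaves. A background without the ubiquitin control, which is lower, gave 25 of 329 (7.60%), against 14.2% of all probes. The 25 include probe 361 in 5 tissues and 6 of the upstream probes of miR166a.

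Probe 471 was the brightest of them across tissues and the only one present in all 6. It read 3146 and 17020 in leaves, 2047 and 23199 in inflorescences, 7024 and 6521 in roots, 13510 and 1635 in green berries, 4917 and 5848 at veraison, and 942 and 2495 in mature berries. The mature probe of miR169a, of which it shares the last 11 bases, read 900.5 and 298 in leaves, 4241 and 3354 in inflorescences, 118 and 102 in roots, 346 and 659.5 in green berries, 880 and 1360 at veraison, and 878 and 897 in mature berries, and was present in no tissue. Probe 471 was the brighter on 11 of 12 arrays and above 3 in perfect match over mismatch on all of them, and its arrays within leaves, inflorescences and green berries lay far apart.

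The shared 11 bases alone gave no such signal. Of the 8 probes that carry them, the other 7 read 1 to 285 on all arrays, with probe 462 at 1 and 1 in leaves and 121 and 42.8 in mature berries. Probe 161 starts 4 bases before probe 471 and shares 16 bases with it, flank included. It was the brightest of the 7 probes with its overlap in every tissue, with means of 1345 in leaves, 1087 in inflorescences, 495 in roots, 875 in green berries, 869 at veraison and 399 in mature berries. Probes 471 and 161, which share a flank, were thus brighter than the probes with the same overlaps and other flanks. The source of their signal was not tested.

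Probes 212 and 218 share the first 12 bases of miR171f and were brighter than its mature probe on 11 of 12 arrays each. Probe 212 read 4048 and 9950 in inflorescences, 3889 and 1482 in green berries, 1979 and 3907 at veraison, and 401.5 and 235 in leaves. Probe 218 read 3445 and 8865 in inflorescences, 3201 and 1298 in green berries, 1920 and 5034 at veraison, and 431 and 213.5 in leaves. The mature probe of miR171f read 2801 and 2325 in inflorescences and at most 562 elsewhere. Both probes lie at 5 bases upstream of another miRNA of the family as well, with 15 shared bases, miR171e for probe 212 and miR171h for probe 218. The mature probe of miR171e read 2461 and 5028 in inflorescences and that of miR171h 2653 and 6388, so each shifted probe was brighter than these too. Both were highest in inflorescences and lowest in leaves, as their miR171 mature probes were highest in inflorescences.

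miR398, which targets mRNAs of copper/zinc superoxide dismutases, gave the brightest shifted probes of all, in roots. Probe 63 read 33658 and 26569 in roots, against 58.8 to 736.5 on the other 10 arrays. Probe 668, shorter by 1 base, read 27382 and 22966 in roots, against 58.8 to 722 elsewhere. Apart from the roots, both were above background only on the second green berry array. Both start 4 bases after the listed miR398b, and no probe equals that sequence, so no ratio to a mature probe exists. They may be the probes designed for mature miR398 itself, and count as shifted only with respect to the listed sequence. Probe 63 is numbered between the mature probes of miR395n (57) and miR399a (64). Set against probe 63, which shares 14 bases with probe 292 and 15 with probe 295, the 2 flanking probes of that stretch were dim in the same roots. Probe 292 (9 bases before miR398a) read 2760 and 2838 there, or 9.29% of probe 63, and probe 295 (10 bases after miR398b) read 2069 and 1382, or 5.73%. Both were far above their other arrays, which reached at most 204.5 for probe 292 and 239.5 for probe 295. Probe 666 (6 bases after miR398a) shares 5 bases with probe 63, and read 1112 and 203.5 in roots and 332 to 1798 elsewhere, so its groups overlap.

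The pattern extended to the other miRNAs of copper proteins. miR397 targets laccases and miR408 plantacyanin and laccase mRNAs, and in Arabidopsis these families are induced with miR398 when copper is scarce. Probe 289 next to miR397a read 1576 and 1233 in roots, against 1 to 217.5 on the other arrays. Probe 329 next to miR408 read 467.5 and 643 in roots, against 14 to 261. Both root arrays lay above all 10 others in 7 of the 329 shifted probes (2.13%) and in 1.96% of all 1579 probes. Of the 10 shifted probes of miR397, miR398 and miR408, 6 had this pattern. The 4 without this pattern were probes 660, 666, 718 and 720. These 3 families were singled out after their values had been seen, and of the 6 only probes 63, 668 and 292 exceeded background on both root arrays.

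Across the organs, limma's moderated F test over leaves, inflorescences and roots called 44 of 1579 probes (2.79%) at an adjusted p below 0.05, and 11 of the 329 shifted probes. In 8 of the 11 the roots were highest. How many of all 44 had this order was not counted, so no trait of the shifted probes follows from it. The log2 difference of roots from leaves was 6.89 ± 1.06 (SE) for probe 63, 6.55 ± 0.87 for probe 668, 5.23 ± 0.44 for probe 292, 4.58 ± 0.22 for probe 289, 3.65 ± 0.38 for probe 295 and 2.55 ± 0.36 for probe 329, with adjusted p in limma between 0.000593 and 0.0240. Differences are after quantile normalization with intensities under 50 set to 50, which shortens them where leaves lay at the floor. Probes 343 and 337, both starting 7 bases after miR535a, were also higher in roots (1.87 ± 0.25 and 2.24 ± 0.34, SE), with raw root values of 124 to 393, all below background.

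The remaining 3 calls lay elsewhere. Probe 472, 10 bases before miR169d, read 269.5 and 244 in roots, 484 and 842 in inflorescences and 1149 and 2820 in leaves (roots minus leaves -2.61 ± 0.42, SE, limma adjusted p = 0.0350). The mature probe of miR169d was dim in leaves (45.5 and 18). Probes 370 and 203 differed by less than 1 on the log2 scale, at values next to the floor of 50. Without the first root array 3 shifted probes were called, all among the 11, and without the second 6 were, of which 4 were among the 11. The fit on the 6 organ arrays alone called 0 of 329, with 36 at an unadjusted p under 0.05 in limma.

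Across the berry stages, green, veraison and mature, limma called 10 of 1579 probes (0.633%) and 1 shifted probe. That was probe 203, 6 bases after miR169x, which read 33 and 1 in green berries, 105 and 62.8 at veraison and 182 and 106.5 in mature berries, all below background. The call was lost with a floor of 1, with scaling to the 75th percentile and with the deposited normalized table.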

How the data were processed

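Signals were read by the authors with ScanArray Express and Microarray Imager from Perkin Elmer scans. They deposited the median intensity over a probe's replicate spots on each array, linear and before normalization. A second deposited table holds intensities quantile-normalized by the authors. The sources used here do not say if local background was subtracted. Spot names with the same sequence (1947 names, 1579 sequences) were averaged. Probes were matched to the mature sequences of the study's list through an index of hashed subsequences made from that list, and printed sequences were read from the deposited probes. Where a shifted probe matched several mature sequences, those with an equal probe on the array came first. The longest shared run came next, then the order of the study's list. A longer run with a sequence that lacks an equal probe was thus passed over. There were 140 shifted probes that matched over 1 mature sequence, and where these have a ratio its mature probe depends on this rule. Ratios used mean intensities of the 2 arrays. Differences between shifts were tested by exact sign flips over tissues, and tissues were compared with limma 3.58.1 in R 4.3.3 on all 12 arrays (lmFit, eBayes, Benjamini-Hochberg over all 1579 probes). This fit was tested on simulated data. Precision is limited by having 2 arrays per tissue and by signals near background.

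Probes were named by rule: those keeping at least 10% on both arrays (with the requirement of presence, which none met, and then without it), those present where the mature probe was not, up to 10 called by limma, and the longest overlap per shift for the 10 brightest mature miRNAs. Members of the miR397, miR398 and miR408 families were named after their values were seen. The members, lists and rules were chosen with earlier results of these data known. Alternatives covered the background level, the scale, subtraction of background, the choice of mature sequence, averaging, floors, normalization, the replicate number and leaving out each array.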

Additional observations from a re-analysis of the deposited data

How the results depend on the processing

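Without the ubiquitin control in the background, more mature probes were present and the share of pairs that lost over 90% was 69.6% over all, 54.8% at 10 upstream, 69.9% at 5 downstream and 82.5% at 10 downstream, with medians of 5.38%, 8.73% and 5.95% over all, at 10 upstream and at 5 downstream. Subtracting the control mean gave shares of 96.7%, 90.8%, 98.8% and 100% in that order and medians of 0.0414%, 0.05005%, 0.05005% and 0.0362%. It also gave a difference of 0.32 between 5 and 10 downstream, and of -4.06, -4.14 and -4.50 for 10 upstream, 5 downstream and 10 downstream against 5 upstream (exact test, adjusted p of 0.6 for the first and 0.0625 for each of the others). Subtracting the array median, an alternative added after seeing the data, gave a share of 92.3% and a median of 0.131% over all, medians of 0.564% and 0.0475% at 5 and 10 downstream, a difference of 0.76 between these, and -4.04, -3.79 and -4.61 against 5 upstream, none of them past the threshold. The difference of 10 upstream from 5 downstream passed it at a background of mean plus 3 SD (-1.25) and with the nearest probe as reference where no equal probe exists (-0.69, added after seeing the data). Leaving out each array gave shares of 70.2% to 90.1% over all, 62.1% to 86.0% at 10 upstream, 71.96% to 93.0% at 5 downstream and 74.2% to 96.0% at 10 downstream. The medians ran between 1.92% and 4.98%, 2.28% and 8.42%, 2.66% and 5.22%, and 1.21% and 3.31% in the same order. The differences ran between -0.88 and -0.33 (10 upstream minus 5 downstream), 0.10 and 0.30 (10 upstream minus 10 downstream), 0.43 and 0.92 (5 minus 10 downstream), -3.70 and -2.90, -3.48 and -3.03, and -4.29 and -3.67 (10 upstream, 5 downstream and 10 downstream minus 5 upstream). Without the first root array no difference passed the threshold (exact test, lowest adjusted p 0.0625). No direction was reversed.

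In limma, 5 of 6 shifted probes were called between organs with the filter on presence, against 22 of 75 of all probes. That filter admits probes through a tissue in which they are high, so no conclusion is drawn from this count. The count of shifted probes called between organs was 0 with the organ arrays alone, where 4 of all 1579 probes were called. Between berry stages it was 0 with a floor of 1, the filter, scaling, the deposited normalized table or the berry arrays alone, with 0 to 18 shifted probes at an unadjusted p under 0.05, and 0 to 5 with each array left out, where the first or second mature berry array gave 5. The replicate block gave 8 in the organs and 1 in the berries. Replicate numbers were not shown to pair the samples, since the deviations of same-numbered arrays correlated above 0.1 in 6 of 15 pairs of tissues (-0.41 to 0.78). The normexp correction gave undefined values on 9 of 12 arrays (3234 of 18948 values), so its calls (846 of 1579 probes in the organs and 858 in the berries, with 19 and 0 shifted probes) were not used. Signal over background limits all ratios, also those of 10% or more. Of the 18 pairs that kept at least 10% on both arrays, 0 had the shifted probe itself present.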
